A study of Homo sapiens with 4 samples.

Results

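The 10 genes described here encode the alpha- and beta-tubulin isotypes TUBA1A, TUBA1B, TUBA1C, TUBA4A, TUBB, TUBB2A, TUBB2B, TUBB3, TUBB4B and TUBB6. They were taken by Ensembl ID from the 58051 genes listed in 4 polyA RNA-seq libraries of A549, a long-established cell line from a human lung carcinoma. Every library came from cells carrying A-FOS, a dominant-negative form of the AP-1 subunit FOS that dimerises with AP-1 partners and keeps them from DNA. A-FOS was integrated with piggyBac at random sites under doxycycline control. The plus Dox group (n = 2) received 1 µg/mL doxycycline, and the minus Dox group (n = 2) carried the same insertion and received no treatment. The drug and A-FOS induction went together, so their effects cannot be told apart here. The sources used here do not say how long doxycycline was given, whether the line is 1 clone, or whether the replicates were grown as separate cultures. The p-values below thus describe the spread between these samples alone, and that spread may be technical.

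Alpha- and beta-tubulin join as a dimer, and dimers polymerise head to tail into microtubules, the filaments of the mitotic spindle and of intracellular transport. Humans have several genes for each. Their proteins are nearly alike in the folded body and differ most in the acidic C-terminal tail, where enzymes add and remove tyrosine and glutamate. Cells also hold down their own tubulin mRNA: when free dimer is abundant, TTC5 binds the first residues of nascent tubulin on the ribosome, and SCAPER and the CCR4-NOT deadenylase are recruited to degrade the mRNA.

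The likeness of these genes sets what short reads can separate, so the last 90 coding bases are given for 3 beta genes whose values the results turn on. Coordinates are GRCh38 and sequences come from GENCODE 29, each 5′ to 3′ on the coding strand. Capitals mark bases lying in no 50-base window shared with another alpha- or beta-tubulin gene.
TUBB2A (chr6:3153863-3153952, minus strand): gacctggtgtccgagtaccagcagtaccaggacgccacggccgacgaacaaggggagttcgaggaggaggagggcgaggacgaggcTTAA
TUBB2B (chr6:3224751-3224840, minus strand): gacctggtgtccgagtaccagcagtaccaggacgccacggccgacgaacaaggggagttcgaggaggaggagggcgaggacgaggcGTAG
TUBB3 (chr16:89935715-89935804, plus strand): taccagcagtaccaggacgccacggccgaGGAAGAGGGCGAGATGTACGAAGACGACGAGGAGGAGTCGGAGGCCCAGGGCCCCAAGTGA
TUBB2A and TUBB2B had 4 such bases each in this stretch, whereas TUBB3 had 61. For TUBB3 this holds against tubulin genes alone, since 33.4% of its windows over all transcripts also occur in a readthrough gene on the same strand.

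Over whole coding sequences, TUBA1A was 97.2% identical to TUBA1B and 95.9% identical to TUBA1C, and TUBA1B was 96.8% identical to TUBA1C. TUBA4A stood farther away, at 84.4% to 85.7% identity to the other alpha genes. TUBB2A and TUBB2B were 98.1% identical, and all other pairs of beta genes lay between 80.9% and 87.7%. Over all annotated transcripts, 58.7% of the 50-base windows of TUBB2A and 53.8% of those of TUBB2B also occurred in a transcript of another gene. That share was 11.01% for TUBB4B, the lowest of the 10. The counting of reads that match several genes is not given in the sources used here. Values of TUBB2A, TUBB2B, TUBB3, TUBA1A, TUBA1B and TUBA1C are therefore uncertain as to how their shared reads were split or dropped.

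**Figure D1:**
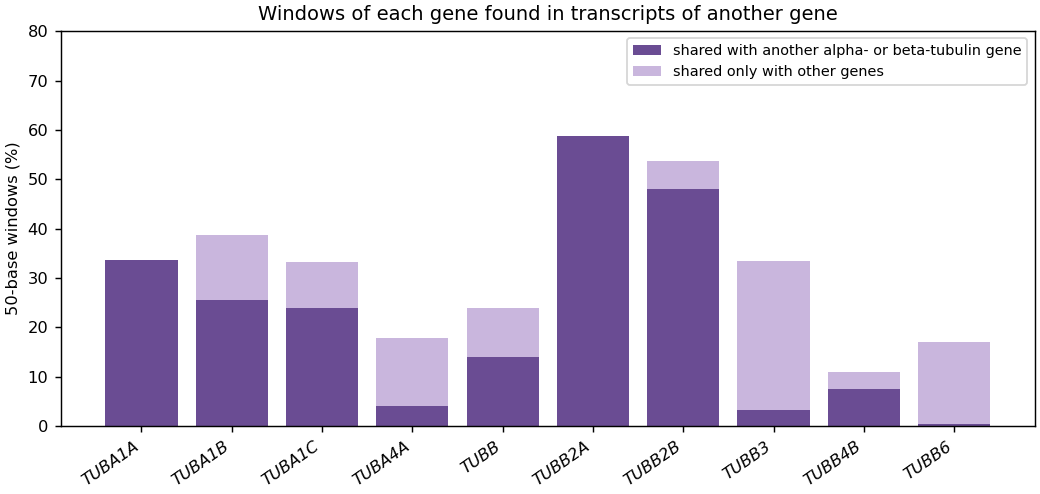
Share of each gene's 50-base transcript windows (%, bars from 0) that also occur in another alpha- or beta-tubulin gene (dark) or only in other genes (light), one bar per tubulin gene. TUBB2A has the highest total at 58.7%, and TUBB4B the lowest at 11.01%.

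The libraries held 32727539 and 31104964 counted reads in plus Dox and 36377784 and 40526912 in minus Dox, and 3 reads corresponded to 0.080 to 0.0895 CPM. FOS, whose row may also collect reads from the A-FOS transgene, stood at 48.6 and 51.0 CPM in plus Dox, against 1.36 and 1.52 CPM in minus Dox. The epithelial markers KRT8 and KRT18 were high in all libraries (KRT8 3706 and 3607 CPM in plus Dox, 5233 and 5328 CPM in minus Dox), while KRT7 was 8.64-fold lower in plus Dox (528 and 524 CPM, against 4445 and 4643 CPM in minus Dox). Altogether 4 of 6 epithelial markers were called lower, where 28.4% of all tested genes were, and EPCAM was at 3.55 CPM or less. KRT8 was called higher once a smooth trend on GC content, exon length and abundance was removed from all genes. Its log2 fold change, plus Dox over minus Dox, was then 0.29 (edgeR adjusted p = 8.24e-11), and that of KRT7 was -2.45. Of the alveolar type II list, SFTPB, SFTPC and NKX2-1 were near 0 and SFTPA1 at 0 throughout, NAPSA was at 2.75 CPM or less, and ABCA3 had 87.4 and 87.2 CPM in plus Dox, against 116 and 124 CPM in minus Dox. DCX and STMN2 of the neuronal list and CD3E of the leukocyte list were at 0 in every library. Fibroblast markers summed to 38.4 and 40.6 CPM in plus Dox and 42.4 and 48.7 CPM in minus Dox, with 1 of 4 tested lower, and leukocyte and endothelial markers summed to 1.76 CPM or less. All 10 tubulin genes passed the low-count filter, with 130 or more reads in each library.

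Tubulin mRNA was lower in plus Dox for 8 of the 10 isotypes, higher for TUBB2B, and not past the threshold for TUBB2A, by edgeR's quasi-likelihood test at a Benjamini-Hochberg adjusted p of 0.05 over all 18046 genes tested. Doxycycline-treated cells differed widely from untreated ones: 28.4% of tested genes were called lower, 28.4% higher and 56.9% in either direction. The median log2 fold change of the 10 isotypes (plus Dox over minus Dox throughout) was -0.52, against 0.00 over all tested genes. Values of plus Dox and minus Dox libraries did not overlap for 9 of the 10, with TUBB2A the exception, beside 77% of all tested genes. Scaling moved these figures. With library size alone in place of TMM factors, the median of all genes shifted to 0.22, that of the isotypes to -0.31, and all-gene calls to 7865 higher and 2925 lower in place of 5133 and 5132. Leaving out TMM moves every gene's fold change up by about that shift, so negative values given below are nearer 0 or turn positive with library size alone. Under that scaling 7 isotypes were lower and 1 higher, beside 16.2% and 43.6% of tested genes. With a smooth trend on GC content, exon length and abundance removed from all genes, 5 were lower and 1 higher, beside 23.9% and 28.5% of the genes tested then. In bulk RNA, fewer cells with a high level and less mRNA in each cell cannot be told apart.

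**Figure D2:**
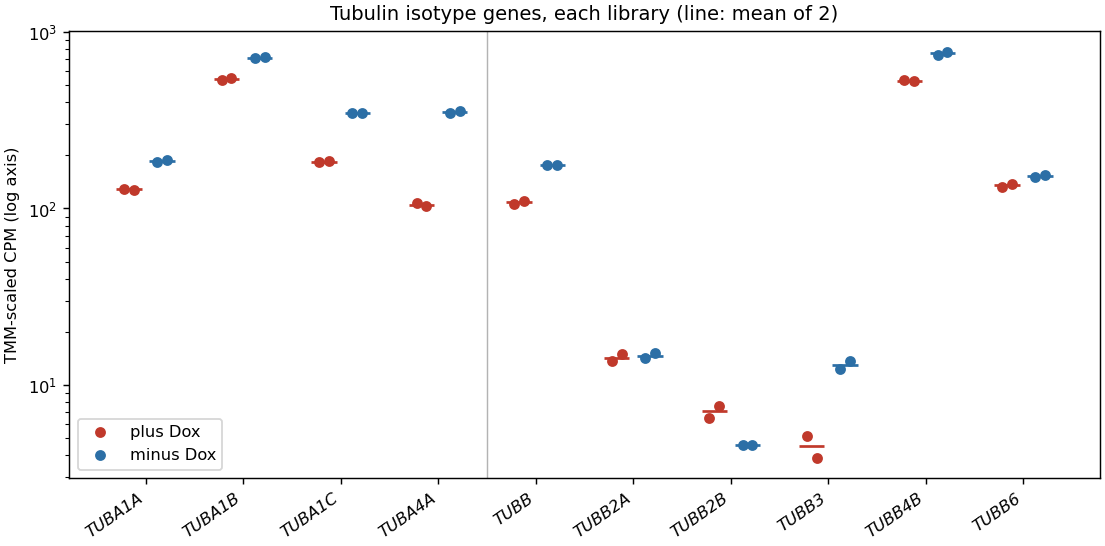
TMM-scaled CPM (log axis) of each tubulin gene in the 2 plus Dox libraries (red, left) and the 2 minus Dox libraries (blue, right); bars are means of 2. The groups separate for every gene except TUBB2A, and TUBB2B is the one gene with plus Dox above minus Dox.

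Among the alpha genes, TUBA4A moved most. TUBA4A (ENSG00000127824, chr2:219249711-219278170, minus strand) had 107 and 103 CPM in plus Dox, against 346 and 356 CPM in minus Dox. The 2 libraries of each group lay close together and the groups far apart, a 3.35-fold lower level in plus Dox (log2 fold change -1.74, SE 0.04, edgeR adjusted p = 1.27e-28). Of all tested genes, 2.55% had a lower fold change. Its exons overlap STK16, a kinase gene on the opposite strand, over 15.4% of their length. STK16 itself stood at 21.2 and 20.4 CPM in plus Dox and 27.7 and 25.6 CPM in minus Dox, well under the TUBA4A level.

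TUBA1C (ENSG00000167553, chr12:49188736-49274603, plus strand), a widely expressed alpha isotype, had 183 and 185 CPM in plus Dox, against 349 and 346 CPM in minus Dox. The groups were far apart and each pair of libraries nearly equal, a 1.89-fold lower level in plus Dox (log2 fold change -0.92, SE 0.04, edgeR adjusted p = 3.72e-21). TUBA1A (ENSG00000167552, chr12:49184796-49189324, minus strand), the isotype best known from developing neurons, had 129 and 128 CPM in plus Dox, against 183 and 188 CPM in minus Dox. It was also lower without overlap (log2 fold change -0.53, SE 0.04, edgeR adjusted p = 3.23e-13). TUBA1A and TUBA1C lie beside each other on opposite strands and share exon bases, 14.3% of those of TUBA1A, and 24.6% of the windows of TUBA1A also occur in TUBA1C.

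TUBA1B (ENSG00000123416, chr12:49127782-49131397, minus strand), the most abundant alpha isotype per length in both groups, had 530.7 and 548.6 CPM in plus Dox, against 708 and 723 CPM in minus Dox. The groups did not overlap (log2 fold change -0.41, SE 0.03, edgeR adjusted p = 1.48e-12). An antisense RNA gene lies across 36.6% of its exon bases and had 0.179 CPM or less in any library. The strand setting of the counting is not given, and whether TUBA1B lost reads over these bases was not tested. With that trend removed, the call for TUBA1B was lost (log2 fold change 0.06, edgeR adjusted p = 0.183), while TUBA4A, TUBA1C and TUBA1A stayed lower at -1.51, -0.63 and -0.27.

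TUBB4B (ENSG00000188229, chr9:137241213-137243707, plus strand), a beta isotype found in most tissues, was the most abundant beta gene. It had 532 and 526 CPM in plus Dox, against 745 and 774 CPM in minus Dox. The minus Dox libraries were both above the plus Dox ones (log2 fold change -0.52, SE 0.03, edgeR adjusted p = 2.11e-15), and this call too was lost with the trend removed (log2 fold change 0.08, edgeR adjusted p = 0.0626). TUBB (ENSG00000196230, chr6:30720201-30725426, plus strand), another widespread beta isotype, had 106 and 111 CPM in plus Dox, against 176 and 177 CPM in minus Dox. It was lower without overlap (log2 fold change -0.70, SE 0.04, edgeR adjusted p = 4.11e-16), and -0.45 with the trend removed.

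TUBB6 (ENSG00000176014, chr18:12307669-12344320, plus strand) moved least of the genes called. It had 132 and 138 CPM in plus Dox, against 152 and 155 CPM in minus Dox (log2 fold change -0.18, SE 0.04, edgeR adjusted p = 0.000573). The groups were close but did not overlap. TUBB6 exons overlap AFG3L2, a gene on the opposite strand, over 20.3% of their length. AFG3L2 stood at 68.24 and 68.16 CPM in plus Dox and 74.36 and 72.05 CPM in minus Dox. The strand setting of the counting is not given, and the part of AFG3L2 reads in the TUBB6 values was not tested. The direction of TUBB6 turned with library-size scaling (log2 fold change 0.04, edgeR adjusted p = 0.483). The call was lost with the trend removed (-0.03, edgeR adjusted p = 0.584) and without plus Dox replicate 1 (-0.15, edgeR adjusted p = 0.0675).

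TUBB3 (ENSG00000258947, chr16:89921392-89938761, plus strand), the beta isotype used as a marker of neurons and also made by many carcinomas, had low counts. It had 5.11 and 3.88 CPM in plus Dox, against 12.3 and 13.7 CPM in minus Dox. That was 180 and 130 reads in plus Dox and 416 and 512 reads in minus Dox, so the smaller group rested on few reads. The level was 2.88-fold lower in plus Dox (log2 fold change -1.53, SE 0.13, edgeR adjusted p = 1.9e-12), and -1.57 with the trend removed. TUBB3 shares 35.8% of its exon bases with a readthrough gene on the same strand, which had 0 or near 0 reads in every library. The treatment of reads lying in 2 genes is not given. Whether TUBB3 lost reads over the shared bases was not tested, so its level may be understated.

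TUBB2B (ENSG00000137285, chr6:3224261-3231730, minus strand), a beta isotype prominent in developing brain, was the exception in direction. It had 6.53 and 7.64 CPM in plus Dox, against 4.58 and 4.59 CPM in minus Dox, or 230 and 256 reads in plus Dox and 155 and 172 reads in minus Dox. Both plus Dox values lay above both minus Dox values, 1.54-fold higher on the fitted scale (log2 fold change 0.63, SE 0.14, edgeR adjusted p = 0.00034). Its near copy TUBB2A (ENSG00000137267, chr6:3153669-3157526, minus strand) had 13.6 and 14.9 CPM in plus Dox, against 14.2 and 15.1 CPM in minus Dox. The groups overlapped and no difference was detected (log2 fold change -0.04, SE 0.10, edgeR adjusted p = 0.736), and the sign turned with library-size scaling (0.17, edgeR adjusted p = 0.118). With 54.1% of the windows of TUBB2A also present in TUBB2B, reads moved between the pair by the counting cannot be told apart from a change of either gene.

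TUBB3 and TUBB2B are both used as neuronal genes and they moved in opposite directions. The neuronal marker list did not move one way either: of 10 genes 6 were tested, SYP, SYT1 and NEFL were higher and SNAP25 and RBFOX3 lower. Its summed level was 101 and 95.9 CPM in plus Dox and 92.6 and 90.1 CPM in minus Dox. Of 8 cell cycle genes, 1 was higher (CDK1), 4 were lower and 3 were not past the threshold, beside 28.4% of all tested genes called in each direction. They summed to 2282 and 2299 CPM in plus Dox and 2468 and 2430 CPM in minus Dox. The part of either list in the tubulin values was not tested.

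**Figure D3:**
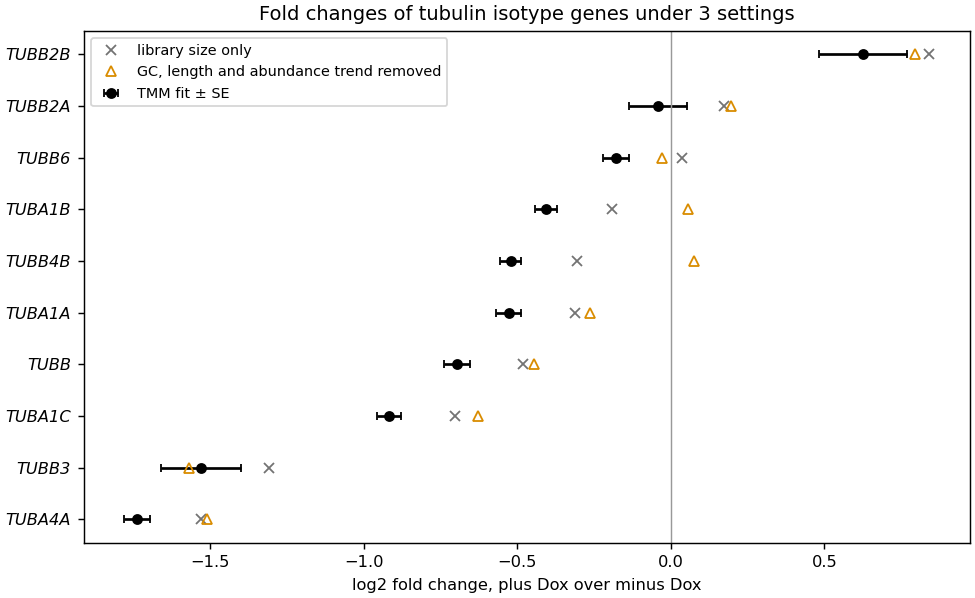
Log2 fold change, plus Dox over minus Dox, of each tubulin gene in the TMM-scaled edgeR fit (black, ± SE), with library size only (crosses) and with a GC, length and abundance trend removed (triangles). TUBA4A, TUBB3, TUBA1C, TUBB and TUBA1A are below 0 and TUBB2B is above 0 in all 3 settings, while TUBA1B, TUBB4B, TUBB6 and TUBB2A change sign in at least 1.

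Summed over isotypes, both classes were lower in plus Dox. The 4 alpha genes summed to 950 and 964 CPM in plus Dox, against 1586 and 1614 CPM in minus Dox. The plus Dox mean was 59.8% of the minus Dox mean. The 6 beta genes summed to 796 and 801 CPM in plus Dox, against 1103 and 1139 CPM in minus Dox, or 71.3%. With library size alone, the log2 ratios of the means were -0.53 for alpha and -0.27 for beta, beside -0.74 and -0.49 with TMM. All 10 genes took 0.188% and 0.190% of all counted reads in plus Dox and 0.250% and 0.255% in minus Dox. The 95% Wilson intervals of these shares were 0.186% to 0.189% and 0.189% to 0.192% in plus Dox, and 0.248% to 0.252% and 0.253% to 0.256% in minus Dox, counting error only. Alpha-tubulin mRNA was also lower relative to beta: per kilobase of exon, the alpha to beta ratio was 0.769 and 0.779 in plus Dox, against 0.905 and 0.891 in minus Dox. No group overlap was seen in any of these sums, where 77% of all tested genes did not overlap in CPM. A 2-sided exact permutation test over 2 against 2 libraries gave p = 0.333 for each, the smallest it can give.

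Isotype shares were computed within each class from CPM per kilobase of exon, which lets genes of different length be compared. TUBA1B made up 58.9% and 60.0% of alpha-tubulin mRNA in plus Dox, against 48.1% and 48.2% in minus Dox. TUBA4A made up 10.4% and 9.83% in plus Dox, against 20.6% and 20.8% in minus Dox. The mean differences were 11.3 percentage points for TUBA1B and -10.6 for TUBA4A, so the 2 shares moved by similar amounts in opposite directions. TUBA1A took 14.8% ± 0.261 in plus Dox and 13.0% ± 0.114 in minus Dox (SD, n = 2 each). TUBA1C took 15.6% ± 0.0759 in plus Dox and 18.1% ± 0.344 in minus Dox. A share is relative: the level of TUBA1B was lower in plus Dox although its share was higher.

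**Figure D4:**
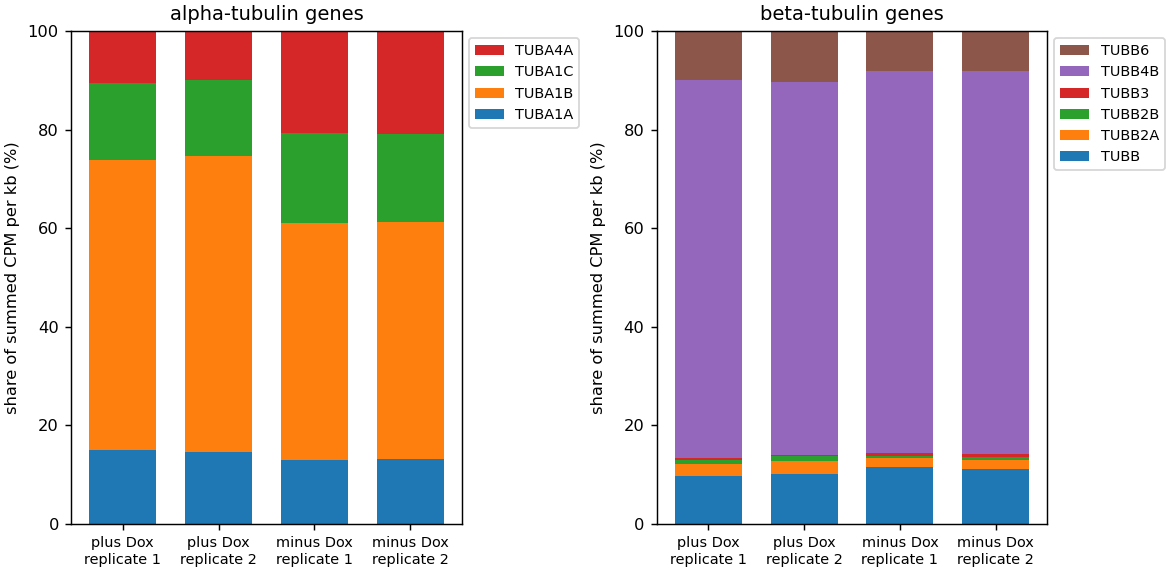
Share (%) of each gene in the summed CPM per kilobase of exon of the alpha-tubulin genes (left) and of the beta-tubulin genes (right), one bar per library, plus Dox first. In the alpha panel TUBA4A takes 10.4% and 9.83% in plus Dox against 20.6% and 20.8% in minus Dox; TUBB4B takes over 75% of the beta panel in every library.

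Among the beta genes, TUBB4B dominated in both groups, with 76.9% and 75.8% in plus Dox and 77.6% and 77.9% in minus Dox. TUBB6 took 9.80% and 10.2% in plus Dox, against 8.09% and 7.98% in minus Dox. TUBB took 9.66% and 10.0% in plus Dox, against 11.5% and 11.2% in minus Dox. The share of TUBB6 differed most of the beta genes, by 1.97 percentage points, or by 3.27 with no division by length and 3.15 with the longest transcript's length. TUBB2A took 2.52% ± 0.159 in plus Dox and 1.83% ± 0.0377 in minus Dox. TUBB2B took 0.984% ± 0.107 in plus Dox and 0.452% ± 0.0107 in minus Dox. TUBB3 took 0.309% ± 0.0605 in plus Dox and 0.633% ± 0.0314 in minus Dox. No share overlapped between the groups, where 77% of all tested genes did not overlap in CPM. Shares of a class add up to the whole, so they do not move independently. Each exact permutation p was 0.333, the smallest these libraries allow. Shares depended on the length used: with uniquely placed windows in place of exon length, TUBB2A took 5.14% in plus Dox and 3.78% in minus Dox. TUBA4A then took 8.24% in plus Dox and 17.3% in minus Dox, and every isotype kept the direction of its difference.

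The order of levels per kilobase also differed. In plus Dox it ran TUBB4B (249 to 252 CPM per kilobase), TUBA1B (148 to 154), TUBA1C (39.6 to 39.9), TUBA1A (37.4 to 37.8), TUBB6 (32.1 to 33.6), TUBB (31.7 to 33.0), TUBA4A (25.2 to 26.2), TUBB2A (7.88 to 8.64), TUBB2B (2.98 to 3.48) and TUBB3 (0.875 to 1.15). Only the neighbours TUBB6 and TUBB overlapped. In minus Dox TUBB4B (353 to 367) and TUBA1B (198 to 202) again led, but TUBA4A was next with 84.8 to 87.4 CPM per kilobase, ahead of TUBA1C, TUBA1A, TUBB and TUBB6. TUBB3 stood above TUBB2B in minus Dox (2.78 to 3.08 against 2.09 CPM per kilobase in both libraries) and below it in plus Dox. Close neighbours depended on the length chosen. With the longest transcript's length, TUBA1A stood above TUBA1C in plus Dox (19.8% and 18.1% of alpha-tubulin mRNA) and TUBB6 above TUBB in minus Dox (13.6% and 11.6% of beta). With uniquely placed windows, TUBB stood above TUBB6 in plus Dox (10.8% and 9.34%). TUBA1C then stood above TUBA4A (18.4% and 17.3%), and TUBB2B above TUBB3 (0.852% and 0.779%), in minus Dox. All other pairs of 1 class kept their order of means under both lengths.

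Processed copies of tubulin genes could hold reads of their parents. Of 50 listed alpha- and beta-tubulin pseudogenes, 36 were at 0 in every library, 3 were tested, and their summed level was 9.57 to 12.5 CPM per library. TUBBP1, which shares 12.4% of the windows of TUBB, had 3.86 and 3.64 CPM in plus Dox, against 6.004 and 4.935 CPM in minus Dox. It was lower in plus Dox, as TUBB was (log2 fold change -0.54, edgeR adjusted p = 0.00456). TUBAP2 had 3.41 and 4.47 CPM in plus Dox and 4.29 and 5.87 CPM in minus Dox (edgeR adjusted p = 0.0658). TUBA5P had 1.42 and 1.25 CPM in plus Dox and 1.15 and 0.987 CPM in minus Dox (edgeR adjusted p = 0.401).

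A-FOS acts on AP-1, so the 250 bases before each annotated start were searched for the AP-1 motif TGANTCA and the cAMP response element TGACGTCA on both strands, in RefSeq promoters of GRCh38.p14. The 10 genes had 15 such windows. AP-1 matched in 1, of TUBB3, beside 6.57% of 35116 windows of all genes. The response element matched in 1, of TUBB2A, beside 1.65% of all. Both matches are shown with 10 bases on each side and the motif in capitals.
TUBB3 (chr16:89921894-89921920, plus strand): gaccggacggTGAGTCAgccttaagcc
TUBB2A (chr6:3157587-3157614, minus strand): ccgcccgtcaTGACGTCAccgggcaggg
The TUBB3 match lay 21 bases before the start of its upstream window. The other TUBB3 window, chr16:89923092-89923341, held no match to either motif. The TUBB2A match lay 60 bases before its start. A match describes letters and does not show binding. TUBA4A, the gene with the lowest fold change, held neither motif in its 1 window. Sequence beyond these 250 bases was not searched, and the part of AP-1 in the fold changes was not tested.

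Of 12 further tubulin genes 7 were tested, of which 2 were higher, 2 lower and 3 not past the threshold (median log2 fold change -0.23), close to the 28.4% of all tested genes called in each direction. TUBB4A, a beta isotype best known from brain, had 35.5 and 36.5 CPM in plus Dox, against 23.1 and 23.8 CPM in minus Dox. It was higher without overlap (log2 fold change 0.62, edgeR adjusted p = 2.8e-09). TUBE1, the centriolar epsilon-tubulin, had 10.6 and 9.34 CPM in plus Dox and 5.29 and 7.52 CPM in minus Dox. It was called higher (log2 fold change 0.63, edgeR adjusted p = 0.000141), but stood at -0.18 with the trend removed (edgeR adjusted p = 0.287) and 0.40 without minus Dox replicate 1. TUBD1, the centriolar delta-tubulin, had 14.3 and 13.3 CPM in plus Dox and 18.8 and 17.0 CPM in minus Dox (log2 fold change -0.37, edgeR adjusted p = 0.00088), and its call was lost with library size alone. TUBG1, the main gamma-tubulin that nucleates microtubules, had 178 and 175 CPM in plus Dox, against 183 and 193 CPM in minus Dox. It did not pass (log2 fold change -0.09, edgeR adjusted p = 0.0568), was called higher with library size alone (0.12) and with the trend removed (0.26), and was called lower with no low-count filter (-0.10, edgeR adjusted p = 0.0434) and without minus Dox replicate 1 (-0.14, edgeR adjusted p = 0.000414). TUBG2, its paralog, had 33.2 and 31.7 CPM in plus Dox and 37.4 and 38.9 CPM in minus Dox (log2 fold change -0.23, edgeR adjusted p = 0.00336), a call lost with library size alone, with the trend removed (edgeR adjusted p = 0.154) and without plus Dox replicate 2 (edgeR adjusted p = 0.0803).

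New tubulin is folded by prefoldin and the ring-shaped chaperonin CCT and paired into dimers by the cofactors TBCA to TBCE. Of 20 such genes tested, 13 were lower, 4 higher and 3 not past the threshold (median log2 fold change -0.17), beside 28.4% of all tested genes called in each direction. The chaperonin subunit CCT4 had 386.3 and 392.1 CPM in plus Dox, against 500 and 492 CPM in minus Dox (log2 fold change -0.35, edgeR adjusted p = 1.2e-10). CCT5 had 400 and 393 CPM in plus Dox, against 505 and 501 CPM in minus Dox (log2 fold change -0.34, edgeR adjusted p = 1.75e-10). Groups did not overlap for either subunit, and both calls were lost with the trend removed, at 0.06 for CCT4 and -0.05 for CCT5. ARL2, a small GTPase that works with the cofactors, had 43.4 and 40.7 CPM in plus Dox, against 60.2 and 63.3 CPM in minus Dox (log2 fold change -0.55, edgeR adjusted p = 4.98e-10), or -0.29 with the trend removed. VBP1, a prefoldin subunit, went the other way, with 109 and 106 CPM in plus Dox and 68.1 and 55.9 CPM in minus Dox (log2 fold change 0.80, edgeR adjusted p = 6.69e-14). The counts of this list turned with scaling: 7 were higher and 5 lower with library size alone (43.6% and 16.2% of all tested genes), and 11 higher and 3 lower with the trend removed (28.5% and 23.9%).

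Of the 12 genes of tubulin mRNA autoregulation, 7 were higher, 1 lower (CNOT9) and 4 not past the threshold (median log2 fold change 0.26), beside 28.4% of all tested genes called in each direction. TTC5, which reads the nascent chain, had 34.0 and 36.9 CPM in plus Dox, against 25.5 and 25.6 CPM in minus Dox. It was higher without overlap (log2 fold change 0.47, edgeR adjusted p = 6.61e-07). SCAPER, the adaptor to CCR4-NOT, had 23.2 and 21.9 CPM in plus Dox, against 13.4 and 12.4 CPM in minus Dox (log2 fold change 0.81, edgeR adjusted p = 8.66e-10). The deadenylase subunits CNOT6, CNOT7 and CNOT8 averaged 79.0, 146 and 74.9 CPM in plus Dox, against 60.0, 110 and 53.7 CPM in minus Dox. All 3 were higher (log2 fold changes 0.40, 0.40 and 0.48), although with the trend removed CNOT6 stood at 0.14 (edgeR adjusted p = 0.0322) and CNOT7 at -0.05 (edgeR adjusted p = 0.375). CCR4-NOT acts on many mRNAs and not on tubulin alone.

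The codons for the residues that TTC5 binds follow the start codon and differ between classes. The first 12 coding bases from GENCODE 29 (GRCh38), with codons 2 to 4 in capitals, are shown on the coding strand.
TUBA1A, TUBA1B and TUBA1C: atgCGTGAGTGC
TUBA4A: atgCGTGAATGC
TUBB and TUBB4B: atgAGGGAAATC
TUBB2A: atgCGCGAGATC
TUBB2B: atgCGTGAGATC
TUBB3 and TUBB6: atgAGGGAGATC
All 4 alpha genes encode arginine, glutamate and cysteine there, and all 6 beta genes encode arginine, glutamate and isoleucine. TUBB2B, which was higher in plus Dox, and TUBB2A, which was not past the threshold, encode the same residues as the beta genes that were lower. Counts of this pair are uncertain, and the part of TTC5 in any of the tubulin values was not tested.

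Of 21 tubulin-modifying enzymes tested, 10 were higher, 4 lower and 7 not past the threshold (median log2 fold change 0.20), beside 28.4% of all tested genes in each direction. Without plus Dox replicate 1, 6 were higher, beside 22.3% of the genes tested then. TTLL7, a polyglutamylase of beta-tubulin, had 14.3 and 16.3 CPM in plus Dox, against 5.89 and 5.71 CPM in minus Dox. It was the most changed of the enzymes (log2 fold change 1.40, edgeR adjusted p = 7.68e-13), and stood at 0.77 with the trend removed. AGTPBP1, which removes polyglutamate, averaged 59.6 CPM in plus Dox and 36.6 CPM in minus Dox (0.71, edgeR adjusted p = 3.3e-12). SIRT2, a deacetylase with tubulin among its substrates, averaged 108 CPM in plus Dox and 65.8 CPM in minus Dox (0.72, edgeR adjusted p = 8.96e-15). TTLL12, a relative of tubulin tyrosine ligase, averaged 54.1 CPM in plus Dox and 93.3 CPM in minus Dox (-0.79, edgeR adjusted p = 4.08e-15).

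Dedicated enzymes add and remove the C-terminal tyrosine of alpha-tubulin. TTL, the ligase that adds it, averaged 65.1 CPM in plus Dox and 76.3 CPM in minus Dox (log2 fold change -0.23, edgeR adjusted p = 0.000391), and stood at -0.01 with library size alone (edgeR adjusted p = 0.854). VASH1, which removes it, averaged 27.0 CPM in plus Dox and 22.9 CPM in minus Dox (0.24, edgeR adjusted p = 0.0082), a call lost without minus Dox replicate 1 (edgeR adjusted p = 0.0676) or plus Dox replicate 2 (0.133). Its partner SVBP averaged 7.64 CPM in plus Dox and 8.90 CPM in minus Dox (log2 fold change -0.22, edgeR adjusted p = 0.118), and 0.12 on the log2 scale with the trend removed (edgeR adjusted p = 0.446). The acetylase ATAT1 averaged 3.79 CPM in plus Dox and 4.29 CPM in minus Dox, and the deacetylase HDAC6 averaged 55.4 CPM in plus Dox and 60.7 CPM in minus Dox. Neither passed (edgeR adjusted p = 0.376 and 0.0534), and both turned positive with library size alone (0.03 and 0.08). HDAC6 was called lower without minus Dox replicate 1 (-0.20, edgeR adjusted p = 0.00187).

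Of 32 tested genes whose proteins bind microtubules or set their dynamics, 14 were higher, 8 lower and 10 not past the threshold (median log2 fold change 0.10). Over all tested genes 28.4% were called in each direction, so the share called lower was near that background. MAP1B, known from growing axons, averaged 353 CPM in plus Dox and 597 CPM in minus Dox (log2 fold change -0.76, edgeR adjusted p = 4.21e-19), or -0.39 with the trend removed. MAP4, the widespread microtubule stabiliser, averaged 367 CPM in plus Dox and 531 CPM in minus Dox (-0.53, edgeR adjusted p = 4.71e-15), and stood at -0.09 with the trend removed (edgeR adjusted p = 0.0297). MAP7, which recruits kinesin-1, averaged 87.7 CPM in plus Dox and 161 CPM in minus Dox (-0.88, edgeR adjusted p = 1.38e-18). CLIP2, a plus-end linker, averaged 88.5 CPM in plus Dox and 154 CPM in minus Dox (-0.80, edgeR adjusted p = 1.19e-16). MAP1A, MAP2 and MAPT, neuronal lattice-binding proteins named after their values were seen, averaged 13.7, 4.41 and 2.72 CPM in plus Dox and 7.91, 2.89 and 1.06 CPM in minus Dox, and were higher (edgeR adjusted p = 1.1e-07, 0.00436 and 3.65e-05). The call for MAP2 was lost without plus Dox replicate 1 (edgeR adjusted p = 0.141). Other members of the list did not follow: MAP1B was lower, and MAP6, STMN3 and DCLK1 were not past the threshold (edgeR adjusted p = 0.0709, 0.729 and 0.993). DCX and STMN2 were at 0 in every library. All 3 end-binding proteins were higher. MAPRE2 averaged 61.6 CPM in plus Dox and 40.2 CPM in minus Dox (0.62, edgeR adjusted p = 2.23e-10), MAPRE3 averaged 63.9 CPM in plus Dox and 31.8 CPM in minus Dox (1.01, edgeR adjusted p = 2.62e-16), and MAPRE1 averaged 338 CPM in plus Dox and 290 CPM in minus Dox (0.22, edgeR adjusted p = 8.92e-06; 0.57 with the trend removed). STMN1, which sequesters free dimers, averaged 168 CPM in plus Dox and 189 CPM in minus Dox (-0.16, edgeR adjusted p = 0.00132), turned to 0.05 with library size alone (edgeR adjusted p = 0.289) and stood at -0.29 with the trend removed.

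In the gamma-tubulin ring complex, the template from which microtubules grow, 3 of 12 genes were higher, 5 lower and 4 not past the threshold (median log2 fold change -0.06), beside 28.4% of all tested genes called in each direction. MZT1, a small subunit needed for complex assembly, averaged 30.4 CPM in plus Dox and 13.6 CPM in minus Dox (1.16, edgeR adjusted p = 1.43e-14), and stood at 0.30 with the trend removed (edgeR adjusted p = 0.00257). NEDD1, which brings the complex to centrosomes and spindles, averaged 94.4 CPM in plus Dox and 60.9 CPM in minus Dox (0.63, edgeR adjusted p = 2.39e-11), and stood at 0.07 with the trend removed (edgeR adjusted p = 0.379). MZT2A and MZT2B, near-identical genes whose counts are uncertain for that reason, averaged 21.9 and 32.3 CPM in plus Dox and 31.2 and 46.1 CPM in minus Dox. Both were lower (log2 fold change -0.51 each), and MZT2B stood at -0.29 with the trend removed.

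**Figure D5:**
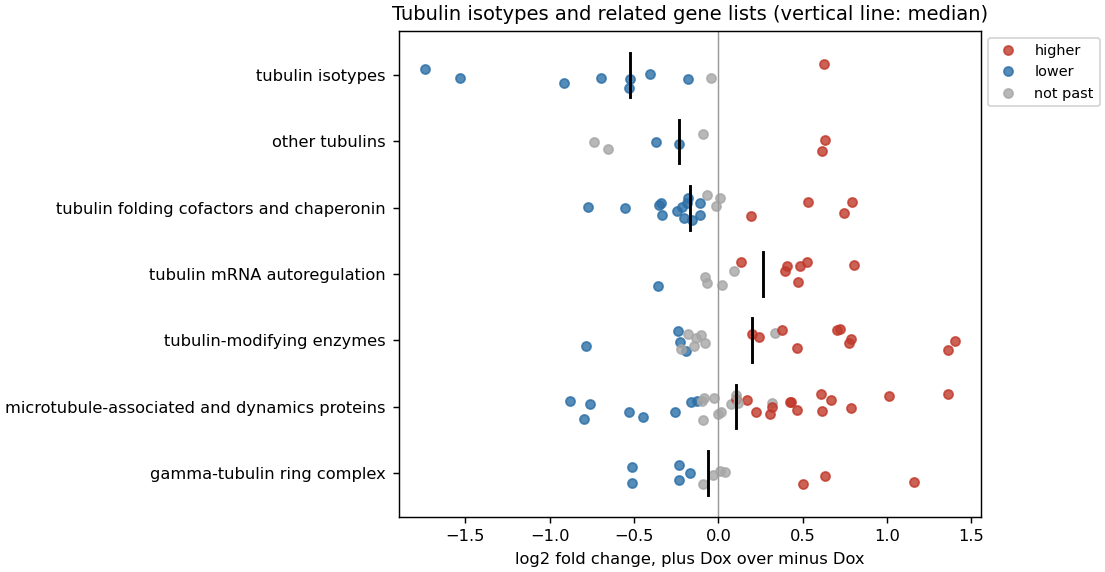
Log2 fold change, plus Dox over minus Dox, of every tested gene of the tubulin isotypes and of 6 related lists; red is called higher, blue called lower, grey not past the threshold, and the vertical line is the list's median. The isotypes have the lowest median at -0.52, and the autoregulation genes the highest at 0.26.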

How the data were processed

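PolyA RNA was measured in 2 plus Dox and 2 minus Dox libraries of A549 cells, made with a stranded mRNA kit and read as paired ends per the labels' protocols. The deposited values are raw read counts for each Ensembl gene, without normalization, per the file headers. The submitters' processing notes name DRAGEN, cutadapt 4.0, STAR 2.7.10b, featureCounts 2.0.3, DESeq2 2.11.40.7 and hg38. For the strand setting, the annotation release and the treatment of multiply matching reads, the rule is not given in the sources used here, so overlapping genes cannot be told apart.

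From these counts, genes were filtered with filterByExpr (18046 kept), scaled by TMM (factors 1.077 and 1.079 in plus Dox, 0.930 and 0.926 in minus Dox) and tested with edgeR 4.0.16's quasi-likelihood test in R 4.3.3, group as the only term, with p-values adjusted by Benjamini and Hochberg's method across the tested genes, threshold 0.05. Levels are TMM-scaled CPM. Errors of means are SDs. Tested on simulated data over 18046 genes, the fit recovered 46% of genes changed 1.2-fold, 84% at 1.5-fold, 88% at 2-fold and 100% at 4-fold. The simulation changed 50 genes at each size, far fewer than the 56.9% of genes called in the data. These recoveries therefore do not give the power of the fit on the data.

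Gene names, exon lengths and transcript windows came from GENCODE 29, in which 57447 of 58051 IDs were found. Of 150 list names 149 matched (TBCE did not). The isotypes and lists were chosen with earlier results of these data known. All isotypes are named, with up to 4 tested genes of lowest adjusted p per list and 10 chosen for their roles, and the 3 pseudogenes of highest mean CPM. CNOT9, MAP1A, MAP2, MAPT, MAPRE2, the marker genes, FOS, STK16 and AFG3L2 were named beside these. Alternatives were DESeq2 1.42.0, library size only, no low-count filter, replicate number as a block, a GC, length and abundance trend removed, 3 other lengths for shares, and each library left out. Counts within a group differed by more than sampling noise (chi-square per degree of freedom 2.23 in plus Dox and 4.15 in minus Dox), so both were kept as separate libraries. The coding ends of the alpha genes are not reported here.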

Additional observations from a re-analysis of the deposited data

How the results depend on the processing

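Of 90 isotype fold changes under the alternatives, 82 kept their direction and side of the threshold. Without the trend on GC, length and abundance, TUBA1B stood at 0.0553, TUBB4B at 0.0762, TUBB2A at 0.195 and TUBB6 at -0.0305. With library size only, TUBB6 stood at 0.0369 and TUBB2A at 0.174. The cause was not tested. Leaving out 1 library gave -0.11 to 0.023 for TUBB2A (0.023 without plus Dox replicate 1) and -0.213 to -0.148 for TUBB6. TUBA4A ranged over -1.78 to -1.72, TUBB3 over -1.74 to -1.35 and TUBB2B over 0.51 to 0.73. Isotypes called lower numbered 5 with the trend removed. With library size only, 43.6% of all tested genes were called higher and 16.2% lower. Beside that, counts were 3 higher and 0 lower for other tubulins, 7 and 5 for folding genes, and 10 and 1 for autoregulation. They were 12 and 1 for modifying enzymes, 21 and 5 for microtubule-associated proteins, and 7 and 2 for the gamma-tubulin ring complex. With the trend removed, 28.5% of the genes tested then were called higher and 23.9% lower. Counts were then 2 higher and 1 lower for other tubulins, 11 and 3 for folding genes, and 7 and 2 for autoregulation. They were 8 and 2 for modifying enzymes, 17 and 8 for microtubule-associated proteins, and 4 and 2 for the ring complex. Without 1 library, other tubulins had 1 to 3 lower, autoregulation 1 to 3 lower, and modifying enzymes 6 to 10 higher. With the replicate block no isotype call changed, and TUBA4A stood at -1.74. TUBG1 (edgeR adjusted p = 0.0476) and HDAC6 (edgeR adjusted p = 0.0396) then passed as lower, and calls over all genes numbered 10414 beside 10265. Deviations of same-numbered libraries were uncorrelated over genes (r = 0.00). With 2 libraries per group this is 1 value, so whether the numbers pair the libraries cannot be told. The 2 libraries of each group limit precision. A 1.2-fold change was recovered in 46% of simulated cases, in a simulation with far fewer changed genes than the data.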
